A study of Homo sapiens with 10 samples.

Results

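The peaks of Larp7 were set against the peaks of Cdk9 in HCT116, a human cell line from a colorectal carcinoma. Peaks on chromosomes 1 to 22 were compared, and a peak was called shared when it overlapped a peak of the other list by at least 1 bp. The comparison took in 301110 peaks, 182444 of Larp7 and 118666 of Cdk9, out of 681093 peaks on these chromosomes in 5 deposited lists. Of the Larp7 peaks, 70221 were shared with Cdk9 and 112223 were Larp7-only. Of the Cdk9 peaks, 77910 were shared with Larp7 and 40756 were Cdk9-only.

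The series holds 10 ChIP-seq libraries of untreated HCT116 cells, 1 for each antibody, made to ask where KAP1, the 7SK ribonucleoprotein and RNA polymerase II (Pol II) meet on human genes. The Larp7 library used the Sigma antibody av40847, and the Cdk9 library used the Santa Cruz antibody C-20 (sc-484). Cells were grown in DMEM with 10% serum, and chromatin was crosslinked with 1% formaldehyde for 10 min. Sonication over 50 min gave fragments of 100 to 300 bp. The labels call the cells colonic endothelial, whereas the line is of epithelial origin. Of 14 colon epithelium markers, 9 had Pol II at the promoter, and so did 6 of 14 endothelium markers, against 71.8% of all coding promoters, so these counts do not tell the cell type. With 1 library a side, no value below has a replicate check, and no test between the libraries was possible.

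Larp7 is an RNA-binding protein that holds the 3′ end of the 7SK RNA and keeps it stable. In the 7SK ribonucleoprotein, Hexim1 or Hexim2 binds P-TEFb, the kinase made of Cdk9 and a cyclin T, and keeps it inactive. Once released, Cdk9 phosphorylates NELF, DSIF and the tail of Pol II, which lets paused Pol II move into the gene. Cdk9 also sits in active complexes that hold neither Larp7 nor 7SK, such as the super elongation complex.

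The promoters below stand for the 3 kinds of place the comparison turns on. They are the coding genes of highest deposited fold whose annotated start lay under a peak that overlapped no peak of the other list, and the first gene with both. This choice was made after their values were seen. Each runs from 250 bases before the start to 49 after it on the gene's strand, in hg19 (GRCh37). Capitals mark matches, on either strand, to GGGCGG (the GC box), to CCAAT (the CCAAT box), to TATAAA (the TATA box) and to TGANTCA (the AP-1 motif). The first pair held Larp7 without Cdk9. DDX4, an RNA helicase of germ cells, is at chr5:55033595-55033894 on the plus strand, and H1-1, a linker histone, is at chr6:26017966-26018265 on the minus strand.
DDX4: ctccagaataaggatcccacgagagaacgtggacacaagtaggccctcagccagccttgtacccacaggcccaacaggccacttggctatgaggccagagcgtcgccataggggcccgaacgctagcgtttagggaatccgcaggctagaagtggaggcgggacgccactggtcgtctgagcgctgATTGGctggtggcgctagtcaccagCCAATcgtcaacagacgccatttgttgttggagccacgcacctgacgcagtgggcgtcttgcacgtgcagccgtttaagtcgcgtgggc
H1-1: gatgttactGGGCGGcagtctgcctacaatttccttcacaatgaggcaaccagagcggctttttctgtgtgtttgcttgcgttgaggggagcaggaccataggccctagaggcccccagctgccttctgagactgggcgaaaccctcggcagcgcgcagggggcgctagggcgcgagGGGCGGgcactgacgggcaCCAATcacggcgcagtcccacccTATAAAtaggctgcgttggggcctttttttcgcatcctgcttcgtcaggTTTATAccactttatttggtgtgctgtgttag
The next pair held Cdk9 without Larp7. ENSG00000259060, which shares its start region with RNASE11, is at chr14:21077905-21078204 on the minus strand, and GTF3C3, a subunit of the RNA polymerase III factor TFIIIC, is at chr2:197664400-197664699 on the minus strand.
ENSG00000259060: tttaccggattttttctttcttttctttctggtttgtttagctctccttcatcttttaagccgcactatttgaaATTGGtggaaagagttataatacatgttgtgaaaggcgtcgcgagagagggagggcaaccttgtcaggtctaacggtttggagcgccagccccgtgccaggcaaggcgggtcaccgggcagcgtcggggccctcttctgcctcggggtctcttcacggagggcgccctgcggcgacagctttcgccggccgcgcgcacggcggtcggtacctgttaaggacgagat
GTF3C3: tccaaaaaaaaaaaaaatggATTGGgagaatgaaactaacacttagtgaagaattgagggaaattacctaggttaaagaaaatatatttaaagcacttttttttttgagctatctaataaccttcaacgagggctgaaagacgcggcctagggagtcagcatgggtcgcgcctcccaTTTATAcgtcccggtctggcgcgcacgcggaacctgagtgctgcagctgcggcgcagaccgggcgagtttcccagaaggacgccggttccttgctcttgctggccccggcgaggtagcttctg
The last held the joint peaks of best summed rank. DHX32, a putative RNA helicase whose start lies back to back with that of FANK1, is at chr10:127584956-127585255 on the minus strand.
DHX32: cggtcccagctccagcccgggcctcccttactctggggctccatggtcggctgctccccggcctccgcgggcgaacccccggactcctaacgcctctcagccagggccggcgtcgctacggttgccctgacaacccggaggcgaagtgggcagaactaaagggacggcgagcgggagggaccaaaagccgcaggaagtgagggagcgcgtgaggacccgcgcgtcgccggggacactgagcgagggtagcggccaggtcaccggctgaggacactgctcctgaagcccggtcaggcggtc
GC content of these 300 bases was 60.7% for DDX4 and 58.0% for H1-1, 56.3% for ENSG00000259060 and 49.7% for GTF3C3, and 70.7% for DHX32. The start of H1-1 had 2 TATA boxes, a CCAAT box and 2 GC boxes, and that of DDX4 had 2 CCAAT boxes. That of GTF3C3 had a TATA box and a CCAAT box, that of ENSG00000259060 had a CCAAT box, and that of DHX32 had no match. A match describes the letters and is not a binding site. With the start of any transcript counted, GTF3C3 had both factors and the other one-sided genes printed here kept their class.

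Most Cdk9 peaks lay where Larp7 was also called, and the reverse was not so. Larp7 peaks overlapped Cdk9 in 38.5% of cases (exact 95% interval 38.3 to 38.7%), and Cdk9 peaks overlapped Larp7 in 65.7% (65.4 to 65.9%). Here and below, intervals of shares are exact binomial ones and cover counting error only, with neighbouring peaks not independent. In bases, 54.6 Mb lay under both, which was 37.6% of the 145 Mb under Larp7 and 70.1% of the 77.9 Mb under Cdk9. The lists differed in length, and the share of each is bounded by the length of the other. With each list held to its 20000 peaks of highest deposited −log10 p, the shares were 49.7% for Larp7 and 52.1% for Cdk9.

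Shared peaks were nested more often than offset. Of the shared Cdk9 peaks, 51.3% lay wholly inside 1 Larp7 peak, whereas 7.76% of the shared Larp7 peaks lay wholly inside 1 Cdk9 peak. Most shared Larp7 peaks, 91.3%, touched a single Cdk9 peak. One Larp7 peak held 13 Cdk9 peaks, the most of any. The widest shared Larp7 peak ran for 60914 bp on chromosome 9, nearest to the start of DNLZ, and the widest shared Cdk9 peak ran for 33857 bp on chromosome 8, nearest to the start of PLEC, the gene of the cytoskeletal linker plectin.

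Shared peaks were wider than one-sided ones in both lists. The median width was 294 bp for Larp7-only and 842 bp for shared Larp7 peaks. It was 239 bp for Cdk9-only and 565 bp for shared Cdk9 peaks. Many one-sided peaks sat at the narrowest width of their list, 170 bp for Larp7 and 158 bp for Cdk9: 14.0% of Larp7-only and 30.7% of Cdk9-only peaks did so, against 2.71% of shared Larp7 and 8.97% of shared Cdk9 peaks. One-sided peaks also had lower deposited −log10 q. Of Larp7-only peaks 4.74% had a −log10 q of 5 or more, against 40.8% of shared Larp7 peaks. Of Cdk9-only peaks 0.155% did, against 6.71% of shared Cdk9 peaks.

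The higher a peak stood in its own list, the more often the other factor was there. Each list was divided into 10 equal bins by deposited fold, the authors' enrichment value for a peak, read only within its own list. From the lowest to the highest bin the share of Larp7 peaks with Cdk9 ran from 14.7 to 87.6%. The share of Cdk9 peaks with Larp7 ran from 35.9 to 98.2% over the bins of its own list. With bins of width it ran from 10.8 to 89.3% for Larp7 and from 36.8 to 98.4% for Cdk9.

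**Figure D1:**
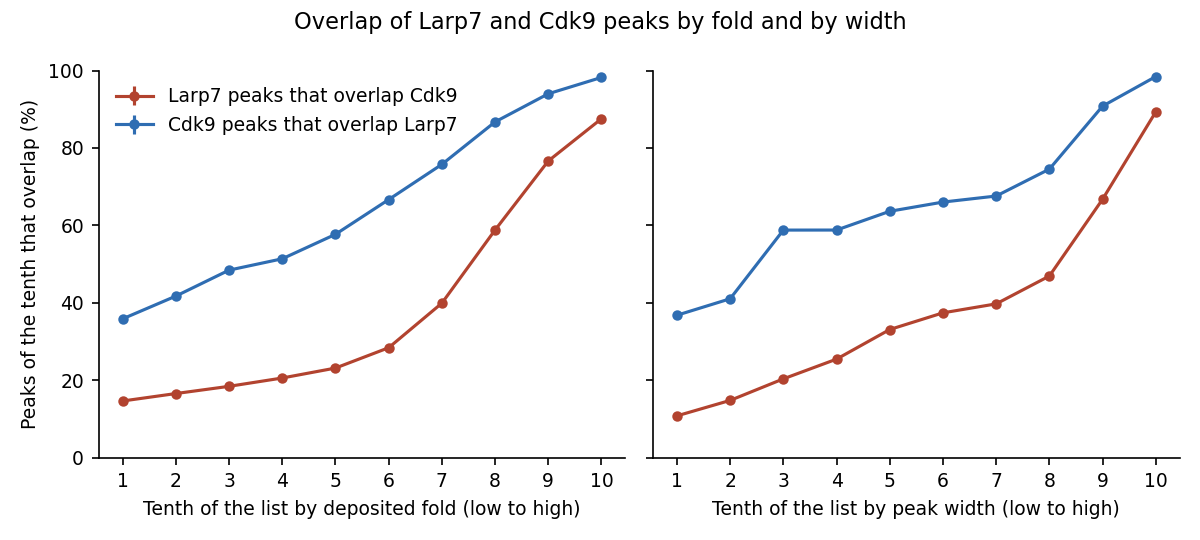
Share of peaks (%, y axis) that overlap the other list in each of 10 equal bins of a list, ordered by deposited fold (left) or width (right), with exact 95% intervals that are smaller than the points. In the top bin by fold, 87.6% of Larp7 peaks overlapped Cdk9 and 98.2% of Cdk9 peaks overlapped Larp7.

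One-sided peaks of high −log10 q were more numerous for Larp7 than for Cdk9. A −log10 q of 5 or more was reached by 33986 Larp7 and by 5294 Cdk9 peaks. Of these Larp7 peaks 5322 were Larp7-only, and 88.8% of the 5322 overlapped Hexim1, 32.2% KAP1 and 26.7% Pol II. Of these Cdk9 peaks 63 were Cdk9-only, of which 46 overlapped Hexim1 (73.0%), 4 overlapped KAP1 (6.35%) and 40 overlapped Pol II (63.5%, 50.4 to 75.3%). Among shared Larp7 peaks at this cut, 99.5% overlapped Hexim1, 87.4% KAP1 and 83.2% Pol II. Among shared Cdk9 peaks at this cut, 99.8% overlapped Hexim1, 93.3% KAP1 and 92.0% Pol II. Both one-sided sets were narrow, with medians of 259 bp for Larp7 and 222 bp for Cdk9, and 2 of the 63 Cdk9-only peaks had their middle at a coding promoter. The Larp7-only peak of highest −log10 p (19.0, fold 8.26) covered chr16:81647807-81648095 in an intron, and the nearest coding start, over 100 kb away, was that of PLCG2. Next came chr5:13810081-13810883 over an exon, nearest to the start of DNAH5, a dynein of motile cilia, with a fold of 8.85, and chr11:35882873-35883154 between coding genes, with a fold of 8.96 and LDLRAD3 as the nearest start. The Cdk9-only peak of highest −log10 p (18.9, fold 10.6) covered chr12:110824917-110825310 in an intron, with a Larp7 peak 531 bp away. The nearest coding start was that of ANAPC7, a subunit of the anaphase-promoting complex. Its neighbours in rank were chr11:116001469-116001690, between coding genes, and an intronic peak on chromosome 8 whose nearest coding start was that of DLC1. These 3 Cdk9-only peaks all overlapped Pol II and Hexim1 and none overlapped KAP1.

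The peaks of highest −log10 p in each list were shared. For Larp7 it was the peak over the common start of DHX32 and FANK1, 1301 bp wide, with a fold of 9.78 and a −log10 p of 56.1. For Cdk9 it was chr21:9825360-9827568, between coding genes, with a fold of 6.18 and a −log10 p of 96.8. The Larp7 peak there, at chr21:9825381-9827568, was second in its list by −log10 p. Its fold of 2.95 was below the Larp7 list median of 3.36. Pol II, KAP1 and Hexim1 peaks also overlapped the Larp7 and Cdk9 peaks there. How reads of several matches were treated is not given in the sources used here, so the rank of this place is uncertain.

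In the whole lists, shared peaks lay at gene starts far more often than one-sided ones. The peak middle was at a coding promoter, meaning within 1 kb of the annotated 5′ end of a protein-coding gene in GENCODE release 44, for 1.14% of Larp7-only and 14.6% of shared Larp7 peaks. It was there for 0.896% of Cdk9-only and 13.9% of shared Cdk9 peaks. Exons held 5.05% of Larp7-only and 11.9% of shared Larp7 peaks, and 2.90% of Cdk9-only and 13.4% of shared Cdk9 peaks. Introns held the most one-sided peaks, with 49.8% of Larp7-only and 49.2% of Cdk9-only peaks. The rest lay between coding genes, 43.98% of Larp7-only and 47.0% of Cdk9-only peaks, against 34.3% of shared Larp7 and 33.5% of shared Cdk9 peaks. The median distance from peak middle to the nearest coding start was 39.6 kb for Larp7-only and 21.99 kb for shared Larp7 peaks, and 43.4 kb for Cdk9-only and 21.4 kb for shared Cdk9 peaks. In lists of equal length, 20000 peaks each, the promoter gap was narrower, above all for Cdk9. Coding promoters then held 12.3% of Larp7-only and 35.8% of shared Larp7 peaks, and 30.0% of Cdk9-only and 35.3% of shared Cdk9 peaks.

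**Figure D2:**
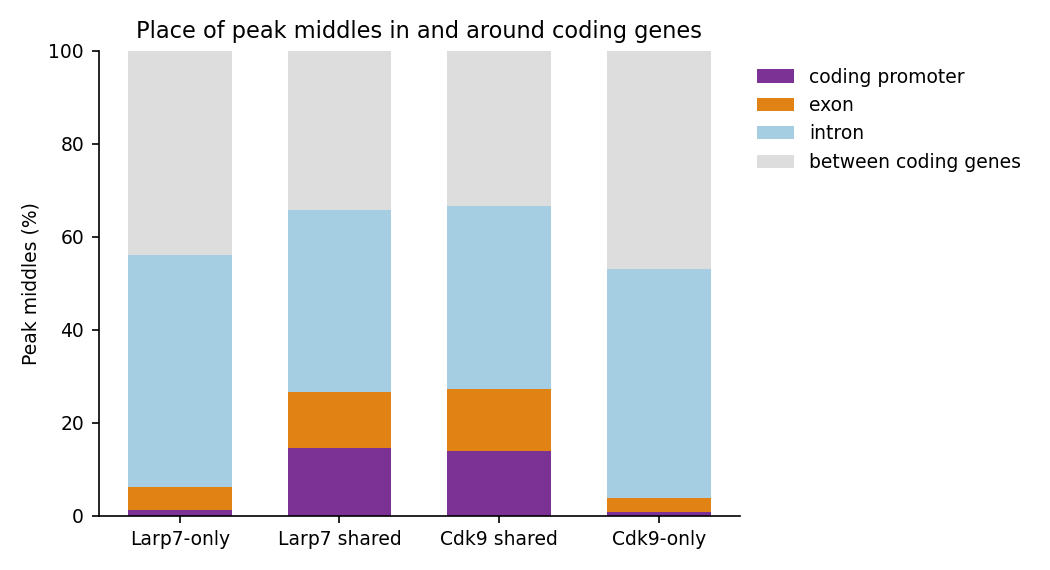
Share of peak middles (%, y axis) by place in or near coding genes (promoter, exon, intron, between genes), for the 2 one-sided and the 2 shared classes. In these whole lists, coding promoters held 1.14% of Larp7-only and 0.896% of Cdk9-only peaks, and 14.6% of shared Larp7 and 13.9% of shared Cdk9 peaks. In lists of 20000 peaks each, they held 12.3% of Larp7-only, 35.8% of shared Larp7, 30.0% of Cdk9-only and 35.3% of shared Cdk9 peaks.

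Few one-sided peaks lay right beside a peak of the other list. The median gap to the nearest peak of the other list was 5361 bp for Larp7-only peaks and 3416.5 bp for Cdk9-only peaks. A peak of the other list lay within 500 bp of 3.44% of Larp7-only and 9.16% of Cdk9-only peaks. Across chromosomes 1 to 22 the share of Larp7 peaks with Cdk9 was lowest on chromosome 8 (32.3%) and highest on chromosome 19 (51.3%). The share of Cdk9 peaks with Larp7 was lowest on chromosome 3 (58.7%) and highest on chromosome 22 (76.7%).

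Larp7-only peaks were the more often accompanied by the other 7SK protein. Hexim1 overlapped 55.2% of Larp7-only peaks (54.9 to 55.5%) and 35.0% of Cdk9-only peaks (34.5 to 35.4%), and about 91% of shared peaks, 90.9% for Larp7 and 90.6% for Cdk9. KAP1, a chromatin-bound co-regulator, overlapped 6.82% of Larp7-only and 1.80% of Cdk9-only peaks. Pol II overlapped 7.27% of Larp7-only and 3.91% of Cdk9-only peaks, against 54.4% of shared Larp7 and 54.1% of shared Cdk9 peaks. None of the 3 was called at 43.1% of Larp7-only and 63.2% of Cdk9-only peaks. Width moved with these shares, so they were taken again among peaks over 200 and up to 400 bp wide: Hexim1 overlapped 52.9% of Larp7-only and 35.7% of Cdk9-only peaks, KAP1 6.66 and 1.92%, and Pol II 7.04 and 4.29%, Larp7-only given before Cdk9-only in each pair. Among peaks over 1 kb, Hexim1 overlapped 85.0% of 8973 Larp7-only and 61.5% of 845 Cdk9-only peaks.

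The base composition of the classes differed as well. In the peak middle and 150 bp on each side of it, median GC content was 51.2% for Larp7-only and 60.1% for shared Larp7 peaks, and 49.2% for Cdk9-only and 61.5% for shared Cdk9 peaks. Outside coding promoters the medians were 51.2% for Larp7-only and 58.5% for shared Larp7 peaks, and 49.2% for Cdk9-only and 59.8% for shared Cdk9 peaks. Among peaks over 200 and up to 400 bp they were 53.2 and 59.8% for Larp7, and 50.5 and 62.5% for Cdk9, one-sided before shared. A GC box was found in 14.6% of Larp7-only, 33.7% of shared Larp7, 10.3% of Cdk9-only and 35.5% of shared Cdk9 peaks, against 21.98% of all Larp7 and 26.8% of all Cdk9 peaks. The AP-1 motif was in 6.14% of Larp7-only, 4.83% of shared Larp7, 7.12% of Cdk9-only and 4.70% of shared Cdk9 peaks, against 5.64% of all Larp7 and 5.53% of all Cdk9 peaks. The part of base composition and of width in the overlap was not tested.

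At the start of genes the 2 factors were mostly called together. Of 19222 coding promoters on chromosomes 1 to 22, 1467 had Larp7 and no Cdk9 (7.63%), 326 had Cdk9 and no Larp7 (1.7%), 13224 had both (68.8%) and 4205 had neither (21.9%). Larp7-only promoters thus outnumbered Cdk9-only ones in the whole lists. In lists of equal length, 20000 peaks each, the order turned: 1574 promoters had Larp7 only, 3508 had Cdk9 only and 4600 had both. Cdk9 had 32.8% of its top 20000 peak middles at coding promoters and Larp7 had 24.0%, and among the top 5000 the shares were 22.2% for Larp7 and 47.0% for Cdk9. Nearly all of the promoters one-sided at equal length had both factors in the whole lists, 92.9% of the Larp7 ones and 99.4% of the Cdk9 ones.

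At one-sided promoters the single peak stood lower in its list than at promoters with both, and more often off the start. The median percentile of the Larp7 fold within the Larp7 list was 54.9 at Larp7-only promoters and 86.5 at promoters with both. The median percentile of the Cdk9 fold within the Cdk9 list was 38.4 at Cdk9-only promoters and 87.2 at promoters with both. The annotated start itself lay under the Larp7 peak at 37.4% of Larp7-only promoters and 81.2% of those with both. It lay under the Cdk9 peak at 18.7% of Cdk9-only promoters and 72.2% of those with both. The missing factor had its nearest peak a median of 4232 bp from the start at Larp7-only promoters and 3342 bp at Cdk9-only promoters. At 166 Larp7-only promoters (11.3%) and 27 Cdk9-only promoters (8.28%), a peak in the window overlapped the other list outside the window, at a distance not measured. Many genes also have further starts. When the start of any transcript counted, 35.5% of the Larp7-only and 43.6% of the Cdk9-only promoters had both.

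The shares of Larp7-only and Cdk9-only promoters with Pol II had overlapping intervals. Pol II was called at 677 of 1467 Larp7-only promoters (46.1%, 43.6 to 48.7%) and at 146 of 326 Cdk9-only promoters (44.8%, 39.3 to 50.4%), a difference of 1.36 percentage points with a 95% interval of -4.78 to 7.43, made from the intervals of the 2 shares by the square-and-add method. It was at 94.5% of promoters with both and 11.7% with neither. In lists of equal length, with the whole Pol II list, Pol II was at 89.3% of Larp7-only and 97.9% of Cdk9-only promoters. With Pol II also cut to its 20000 peaks of highest −log10 p, the difference in Pol II was -42.0 percentage points. Hexim1 was called at 84.1% of Larp7-only (82.1 to 86.0%) and 68.4% of Cdk9-only promoters (63.1 to 73.4%). KAP1 was called at 27.1% of Larp7-only (24.8 to 29.4%) and 12.9% of Cdk9-only promoters (9.45 to 17.0%), against 92.4% of promoters with both. In lists of equal length these differences did not hold: Hexim1 was at 99.5% of Larp7-only and 99.8% of Cdk9-only promoters, and KAP1 was at 92.7% of Larp7-only and 95.4% of Cdk9-only promoters. In the whole lists, Pol II, KAP1 and Hexim1 together were at 18.1% of Larp7-only, 8.90% of Cdk9-only and 89.4% of promoters with both.

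**Figure D3:**
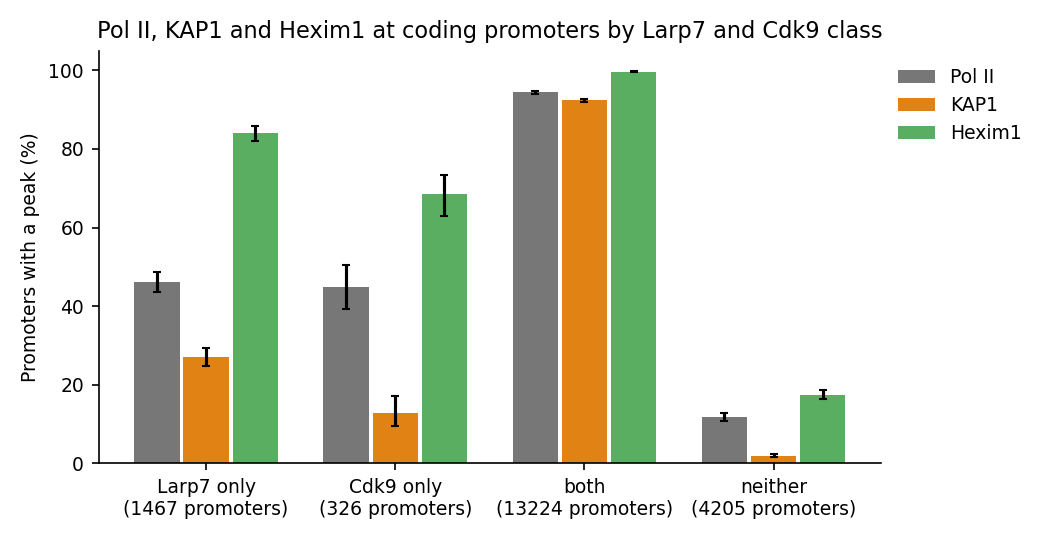
Share of coding promoters (%, y axis) with a Pol II, KAP1 or Hexim1 peak in each Larp7 and Cdk9 class, with exact 95% intervals. Pol II was at 46.1% of Larp7-only and 44.8% of Cdk9-only promoters, while in these whole lists Hexim1 (84.1 against 68.4%) and KAP1 (27.1 against 12.9%) were more frequent at the Larp7-only ones, which in lists of equal length they were not.

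In the whole lists, one-sided promoters were most frequent where Pol II was weak or not called. This turned in Larp7 and Cdk9 lists of equal length. Pol II, from its whole list, was then at 89.3% of Larp7-only and 97.9% of Cdk9-only promoters, against 71.8% of all. In the whole lists, among 5413 promoters without Pol II, 14.6% had Larp7 only, 3.33% had Cdk9 only and 13.5% had both. Promoters with Pol II were split into 5 equal bins by the deposited Pol II fold. From the lowest to the highest bin, the share with Larp7 only ran through 8.07, 9.67, 4.34, 1.63 and 0.797%. The share with Cdk9 only ran through 1.59, 1.92, 1.05, 0.398 and 0.326%, and the share with both reached 98.7% in the highest bin. CpG content moved along with this. In the start and 1 kb on each side, 5678 promoters had a CpG observed-to-expected ratio under 0.4, of which 14.4% had Larp7 only, 3.17% Cdk9 only and 21.98% both. Of the 13535 at or above 0.4, 4.82% had Larp7 only, 1.08% Cdk9 only and 88.5% both. Among CpG-poor promoters with Pol II, 72.4% had both, and among the others with Pol II 92.0% had both. The part of CpG content in these shares was not tested.

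The 300 bases at the start, as printed above for 5 genes, read the same way over the classes. Median GC content was 55.0% at Larp7-only, 52.0% at Cdk9-only, 65.0% at promoters with both and 45.7% at those with neither. A GC box was present at 33.1% of Larp7-only, 24.5% of Cdk9-only, 67.6% of joint and 13.5% of empty promoters, against 52.4% of all. A TATA box was present at 12.3% of Larp7-only, 14.7% of Cdk9-only, 6.56% of joint and 24.0% of empty promoters, against 10.9% of all. A CCAAT box was present at 39.1% of Larp7-only, 43.6% of Cdk9-only, 33.3% of joint and 40.7% of empty promoters, against 35.5% of all.

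Around the start the Larp7 peak was the longer one. At 9146 starts under both, the Larp7 peak reached a median of 462 bp upstream and 764 bp downstream, and the Cdk9 peak 346 bp upstream and 642 bp downstream. Larp7 reached further upstream at 70.7% of these starts and further downstream at 72.0%, and the Cdk9 peak lay inside the Larp7 peak at 52.2%. Over 14329 coding genes of at least 10 kb, Larp7 covered the most genes 100 bp past the start (63.5%) and Cdk9 200 bp past it (55.9%). At 5 kb past the start 11.5% of genes were under Larp7 and 6.13% under Cdk9, close to the 10.8 and 5.39% at 5 kb before it. At the gene end there was a dip, to 11.2% under Larp7 and 6.38% under Cdk9, against 15.3 and 8.65% 1 kb further on. Pol II dipped there too, to 4.68%, against 10.2% 1 kb further on, so the dip was not particular to Larp7 and Cdk9.

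**Figure D4:**
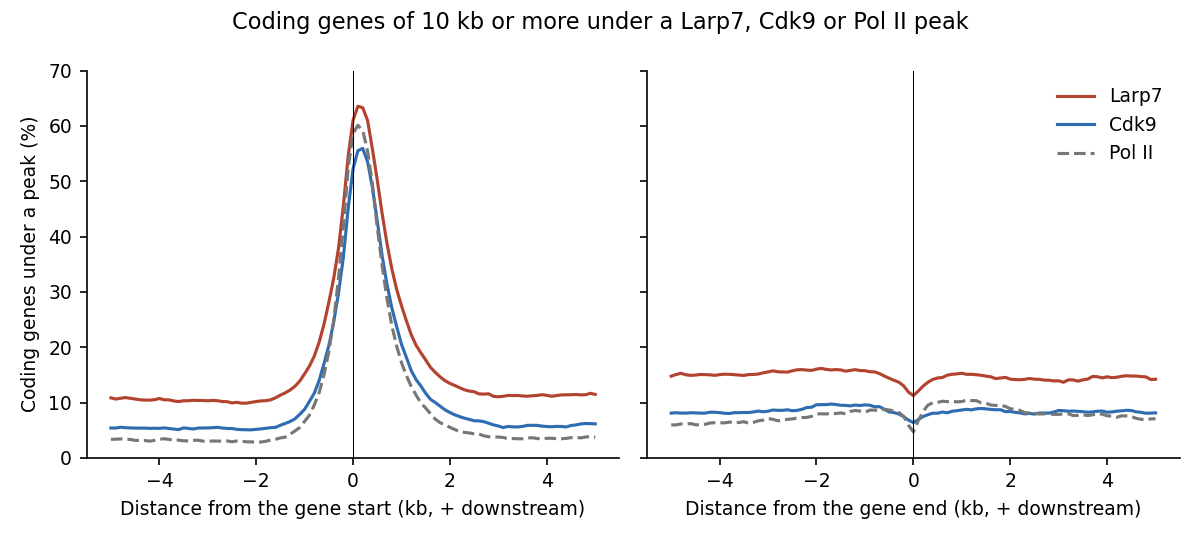
Share of 14329 coding genes of at least 10 kb (%, y axis) that lie under a Larp7, Cdk9 or Pol II peak at each distance from the gene start (left) or gene end (right), x axis in kb. Larp7 peaked at 63.5% and Cdk9 at 55.9% just past the start. Larp7, Cdk9 and Pol II all dipped at the gene end.

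Among the 10 genes of highest Larp7 fold without Cdk9, Larp7 lay near the edge of the window at CRYM, RNLS, CIBAR1, MLPH and PPP1R3A and nearer to the start at the others. CRYM, a thyroid hormone binding crystallin, led with a Larp7 fold of 8.05, but its Larp7 peak began 986 bp from the start and a Cdk9 peak lay 1032 bp away. RNLS, the gene of renalase, had a Larp7 fold of 7.75 at 963 bp, with Cdk9 at 1084 bp. CIBAR1, PPP1R3A, a regulatory subunit of protein phosphatase 1 in muscle, and MLPH, an adaptor in melanosome transport, had Larp7 folds of 7.75, 7.43 and 6.78, with Cdk9 peaks 1647, 1001 and 1019 bp from the start. APOBEC3A, a cytidine deaminase, had a Larp7 fold of 7.48, with Cdk9 at 1548 bp. At DDX4 and H1-1, whose sequences are given above, Larp7 covered the start itself, with folds of 7.26 and 6.71. The nearest Cdk9 peak was 1249 bp from the start of DDX4 and 2707 bp from that of H1-1. USP54, a ubiquitin protease relative, and FAM13C had Larp7 folds of 6.80 and 6.75 at 60 and 342 bp, with Cdk9 4992 and 6485 bp away. When any transcript start counted, CRYM, RNLS, CIBAR1, APOBEC3A, USP54, MLPH and FAM13C had both factors.

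Of the 10 genes of highest Cdk9 fold without Larp7, some had Larp7 just outside the window and others had none for several kb. CDK11A, a kinase gene with a near-identical neighbouring copy, so that its reads are uncertain, led with a Cdk9 fold of 5.96 at 33 bp and a Pol II fold of 44.8, and its nearest Larp7 peak was 1867 bp away. The start shared by ENSG00000259060 and RNASE11, a member of the ribonuclease A family, lay under 1 Cdk9 peak of fold 5.57, with Larp7 over 11 kb off, at 11075 and 11164 bp. CYP11A1, the enzyme of the first step in steroid hormone synthesis, and PUM2, an RNA-binding repressor, had Cdk9 folds of 5.54 and 5.36 at 847 and 887 bp, with Larp7 at 1174 and 1032 bp. GTF3C3 had a Cdk9 fold of 5.25 over its start, a Pol II fold of 30.1 and its nearest Larp7 peak 7408 bp away. IRAK4, a kinase of innate immune signalling, and its neighbour PUS7L shared a Cdk9 peak of fold 5.08 with a Pol II fold of 34.1, and Larp7 was 10044 bp from the start of IRAK4. FFAR3, a receptor for short-chain fatty acids, and TNR, the matrix protein tenascin-R, had Cdk9 folds of 5.34 and 5.27, with Larp7 5783 and 13922 bp away. When any transcript start counted, CDK11A, RNASE11, CYP11A1, PUM2 and GTF3C3 had both factors.

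The genes with the best joint rank carried all 5 factors. At DHX32 and FANK1, which share a peak, the Larp7 fold was 9.78 and the Cdk9 fold 10.3, with a Pol II fold of 37.3. TRAPPC14, a subunit of a vesicle tethering complex, had a Larp7 fold of 8.08 and a Cdk9 fold of 8.19. C19orf67 had 8.14 for Larp7 and 8.03 for Cdk9, MCMDC2 had 7.92 for Larp7 and 8.05 for Cdk9, and SCAF8, a binder of the Pol II tail, had 8.11 for Larp7 and 7.67 for Cdk9.

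Of 7 promoters of the 7SK and P-TEFb machinery, 1 had Larp7 only, 5 had both (71.4%, against 68.8% of all coding promoters) and 1 had neither. At equal length, 4 had Cdk9 only, 1 had both and 2 had neither, against 18.2, 23.9 and 49.6% of all coding promoters. CDK9 itself had a Larp7 fold of 5.44 (percentile 92.3 of the Larp7 list) and a Cdk9 fold of 5.01 (percentile 92.3 of the Cdk9 list). HEXIM1 stood at percentile 77.3 for Larp7 and 95.01 for Cdk9, HEXIM2 at 78.9 and 98.7, MEPCE, the capping enzyme of 7SK, at 80.1 and 98.8, and CCNT2, a cyclin T, at 66.0 and 95.8, Larp7 before Cdk9 in each pair. CCNT1, the other cyclin T, had Larp7 with a fold of 3.23, and its nearest Cdk9 peak was 4704 bp away. At LARP7 neither was within 1 kb of the annotated 5′ end, and Larp7 was 2156 bp from it. With the start of any transcript, LARP7 had Larp7 only and CCNT1 was still Larp7 only. RN7SK, the gene of 7SK RNA at chr6:52860418-52860748, lay under a Larp7 peak of 1506 bp with a fold of 4.41 and a Cdk9 peak of 1406 bp with a fold of 4.10.

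In the whole lists, genes of elongation factors and several groups of inducible genes mostly had both factors. Both were at 16 of 16 promoters of pausing and elongation factors, 13 of 14 of 7SK release factors, 8 of 9 of the super elongation complex, 17 of 20 heat shock genes and 21 of 24 p53 targets, against 68.8% of all coding promoters. Nearly all of these promoters had Pol II. Among those with Pol II, both were at 15 of 15, 13 of 14, 8 of 9, 17 of 19 and 21 of 22 in that order. Of all coding promoters with Pol II, 12495 of 13809 had both. With lists of equal length, both were at 5 of 16, 7 of 14, 3 of 9, 6 of 20 and 8 of 24 of these lists in the same order, against 4600 of 19222 coding promoters. Among 33 immediate early genes, 32 had both and ATF3 had neither. FOSL1, a subunit of AP-1, had a Larp7 fold of 5.23 and a Cdk9 fold of 8.21, DUSP5, a phosphatase of ERK kinases, had 5.57 for Larp7 and 7.87 for Cdk9, and EGR1 had 4.98 for Larp7 and 6.79 for Cdk9. The percentile within the Cdk9 list was above that within the Larp7 list at 29 of these 32 promoters (90.6%), with medians of 89.2 for Larp7 and 96.9 for Cdk9, against 52.1% of all 13224 promoters with both. All 5 joint 7SK and P-TEFb promoters and 45 of 59 joint ribosomal protein promoters ranked the same way. In lists of equal length, no immediate early promoter had Larp7 only, 12 had Cdk9 only and 20 had both. The shares of all coding promoters were then 8.19% with Larp7 only, 18.2% with Cdk9 only and 23.9% with both. The lists differ in length, so these percentiles are descriptions and show no change of level.

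Heat shock genes with Larp7 only were HSPA1B and DNAJB4, with Pol II folds of 67.6 and 50.5 and the nearest Cdk9 peak 3775 and 2466 bp from the start. HSPA1B has a near-identical copy, and its value is uncertain. The p53 targets with Larp7 only were TIGAR, BBC3 and CDKN1A, with Larp7 folds of 4.32, 2.79 and 2.77. With the start of any transcript all 3 had both. Of the super elongation complex, ELL3 had Larp7 only, with a fold of 3.31 and a Pol II fold of 23.8.

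Ribosomal protein and histone genes held promoters of every class. In the whole lists, 7.63% of all coding promoters had Larp7 only, 1.7% Cdk9 only, 68.8% both and 21.9% neither. Of 80 ribosomal protein promoters, 6 had Larp7 only (7.5%), 4 had Cdk9 only (5%), 59 had both (73.75%) and 11 had neither (13.75%). The ribosomal share with Larp7 only was thus near that of all coding promoters. RPL27, RPL21 and RPL36 were Cdk9-only, with Cdk9 folds of 4.46, 3.96 and 3.18 and Larp7 1493, 1726 and 1196 bp from the start. RPL9 and RPL23 were Larp7-only, with Larp7 folds of 3.25 and 3.33 and Pol II folds of 49.9 and 34.5, and RPL10L was Larp7-only with a fold of 3.67 and no Pol II. Of 64 replication-dependent histone promoters, 10 had Larp7 only (15.6%), 6 had Cdk9 only (9.38%), 31 had both (48.4%) and 17 had neither (26.6%). H3C1 and H4C1, neighbours on chromosome 6, had the same Cdk9 fold of 3.85 and the same Pol II fold of 93.7, with Larp7 2448 and 3646 bp away. H1-1, in the same cluster, had Larp7 and no Pol II, and H1-5 had a Larp7 fold of 5.11 and no Pol II, while H3C8 had a Larp7 fold of 6.09 and a Pol II fold of 5.02. H2AC4 was Cdk9-only, with a Cdk9 fold of 3.55 and a Pol II fold of 51.3. Pol II was at 5 of the 10 Larp7-only and all 6 Cdk9-only histone promoters, against 46.1% of all Larp7-only and 44.8% of all Cdk9-only promoters. These promoters are not independent: H3C1 and H4C1, H2BC18 and H3C13, and H2AC13 and H2BC13 each had 1 fold in common. In lists of equal length, 2 of 80 ribosomal protein promoters had Larp7 only and 26 had Cdk9 only. Of the 64 histone promoters, 4 then had Larp7 only and 12 had Cdk9 only. Of all coding promoters, 8.19% had Larp7 only and 18.2% had Cdk9 only at equal length, and the histone share with Cdk9 only was near the latter. Histone genes are alike in sequence, and how reads of several matches were treated is not given in the sources used here.

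**Figure D5:**
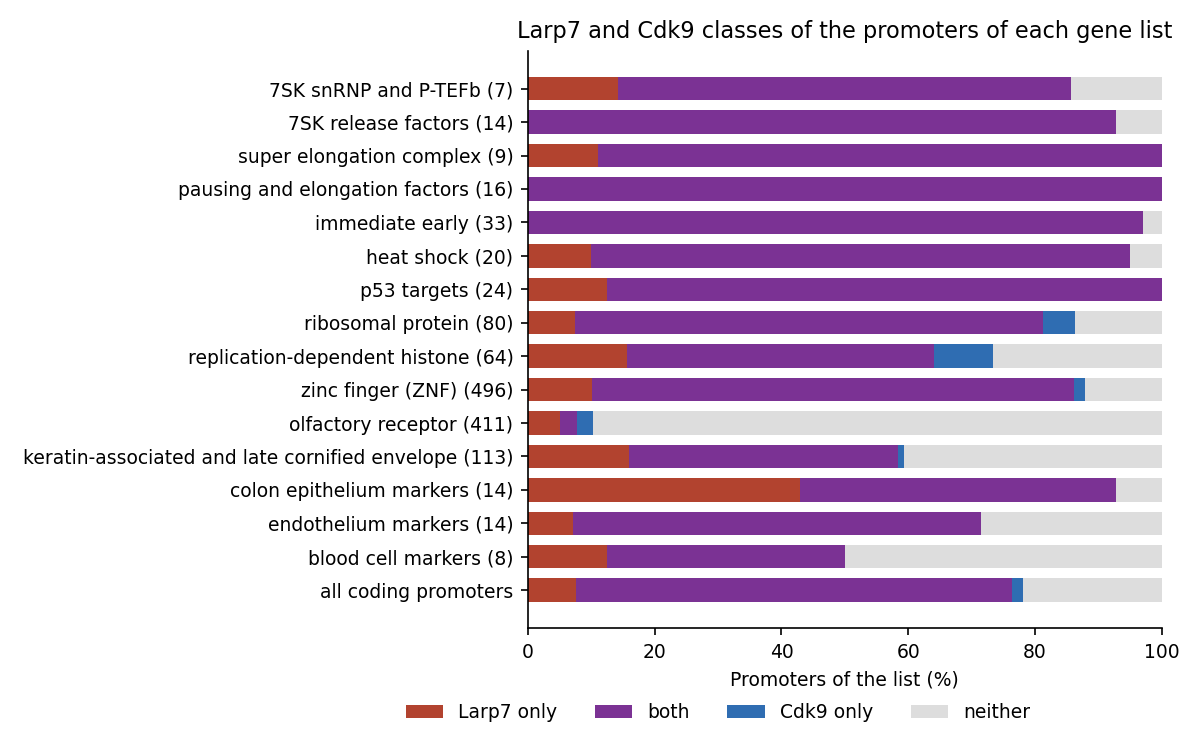
Share of the promoters of each gene list (%, x axis; number of promoters in brackets) with Larp7 only, both, Cdk9 only or neither, with all 19222 coding promoters in the bottom bar. In these whole lists 32 of 33 immediate early and 16 of 16 pausing and elongation factor promoters had both, and 9.38% of histone promoters had Cdk9 only against 1.7% of all.

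Promoters of families known for use in other tissues, and of zinc finger genes and colon markers, were counted against the shares of all coding promoters, 7.63% with Larp7 only and 1.7% with Cdk9 only. Of 411 olfactory receptor promoters, 21 had Larp7 only (5.11%), 10 had Cdk9 only (2.43%), 11 had both and 369 had neither, and 6 had Pol II. OR56A3 had a Larp7 fold of 5.94 over its start, with Cdk9 7887 bp away, and OR7G2 had a Cdk9 fold of 3.20. Of 113 promoters of keratin-associated and late cornified envelope proteins, which build hair and skin, 18 had Larp7 only (15.9%), 1 had Cdk9 only (0.885%) and 48 had both, while 25 had Pol II. LCE2A had a Larp7 fold of 6.12, with Cdk9 29408 bp away, and KRTAP16-1 was the Cdk9-only one, with a Cdk9 fold of 2.89. Among markers of colon epithelium, the tissue of origin of the line, 6 of 14 had Larp7 only and 7 had both. In lists of equal length, 1 of the 14 had Larp7 only, 4 had both and 9 had neither. KRT20, a keratin of differentiated colon, had a Larp7 fold of 3.69 and no Pol II, and CLDN7, a claudin of tight junctions, had a Larp7 fold of 4.60, a Pol II fold of 119.8 and Cdk9 1113 bp from the start. With the start of any transcript, CLDN7 had both factors and KRT20 was still Larp7 only. Of 496 zinc finger promoters 50 had Larp7 only, 9 had Cdk9 only and 377 had both, shares of 10.1, 1.81 and 76.0%. ZNF285 had a Larp7 fold of 5.49 over its start, with Cdk9 27456 bp away, and ZNF131 had a Larp7 fold of 6.01, with Cdk9 1115 bp from the start. Counting any transcript start gave ZNF131 both factors and left ZNF285 Larp7 only. In lists of equal length, 54 of 496 zinc finger promoters had Larp7 only and 99 had Cdk9 only. Of the 113 hair and skin promoters, 16 then had Larp7 only and 7 had Cdk9 only. The shares of all coding promoters at equal length were 8.19% with Larp7 only and 18.2% with Cdk9 only.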

How the data were processed

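ChIP-seq peak lists of Larp7 and Cdk9, 1 library each, were compared, with those of Pol II, KAP1 and Hexim1 beside them. The input, the histone marks and Ser5P Pol II were not analysed here. The submitters' processing notes name Bowtie 1.1, MACS2 and hg19. Control, duplicate handling, calling settings and depth: not given in the sources used here, so depth is unknown. The deposited fold is the authors' ratio for each peak. The deposited −log10 p and −log10 q are the authors' values per peak, and the deposited score was not used. The Larp7 and Cdk9 lists have the broad peak layout.

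Coordinates are 1-based, and no peak ended past a chromosome of GRCh37. Coding genes came from GENCODE release 44 on GRCh37, 1 start per symbol, and sequence from the GRCh37 genome. Peaks were placed by their middle, at a promoter first, then exon, intron or between coding genes. A promoter had a factor if 1 bp or more of a peak fell within 1 kb of the start, and its fold is the highest of those peaks. Intervals are Clopper-Pearson at 95% and cover counting error only. Each antibody has 1 library here, so no p-value is given. The interval routines were tested on simulated data (Python 3.11.15, pandas 2.3.3, SciPy 1.17.1). Members, lists and tests were chosen with earlier results of these data known. Named genes were the 10 of highest fold in each one-sided class, the 6 of best joint rank, the 7SK and P-TEFb list, up to 3 of each other of 15 lists per one-sided class, and the 3 one-sided peaks of highest −log10 p. The printed sequences depart from the planned choice, the first named genes of each class, many of which had the other factor just outside the window. The immediate early and elongation genes with both, DNLZ, PLEC and ATF3 were named after their values were seen. Alternatives were stricter and equal-length lists, other overlaps, peak shapes, promoter windows and starts, and chromosome X.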

Additional observations from a re-analysis of the deposited data

Results flagged for a closer look

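Peaks outside chromosomes 1 to 22 were not part of the comparison, and their overlaps are given here as values. On chromosome X, 809 of 1704 Larp7 peaks overlapped Cdk9 (47.5%, 45.1 to 49.9%), and 858 of 1375 Cdk9 peaks overlapped Larp7 (62.4%). On chromosome Y, 48 of 95 Larp7 peaks overlapped Cdk9 and 50 of 72 Cdk9 peaks overlapped Larp7.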

How the results depend on the processing

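For 5 main results, 27 alternative values stayed close, 18 moved and 5 changed sign. At a −log10 q of at least 5 in both lists, 12.8% of Larp7 peaks overlapped Cdk9 and 83.3% of Cdk9 peaks overlapped Larp7, 6881 promoters had Larp7 only, and the Pol II difference was -7.59 percentage points. At 20000 peaks each, the values were 49.7%, 52.1%, 3508 promoters with Cdk9 only and -42.0 points. With 1 list at that q against the whole other list, they were 84.3% and 98.8%, with 234 promoters for Larp7 only and 4 for Cdk9 only. With an overlap of 50% of the shorter, they were 35.6% and 60.9%, 498 promoters with Cdk9 only and -7.33 points. With peak middles and 250 bp on each side they were 32.8% and 50.4%, 942 promoters with Cdk9 only and -25.0 points, and widths could give no value. For these Pol II differences, the Pol II peaks were filtered, cut or reshaped in the same way as the Larp7 and Cdk9 peaks. With peaks within 1 kb merged the shares were 38.9% and 64.5%. With promoters of 500 bp on each side the Pol II difference was -0.783 points. The cause of these moves was not tested. Leaving out promoters whose peak touched the other list outside the window left 1301 and 299 one-sided promoters, and leaving out clustered gene families left 1368 and 300 (both chosen after seeing the data; Larp7 only before Cdk9 only). Shared peaks stayed wider in the 6 alternatives per list that gave a width, by 332 to 778 bp for Larp7 and 254 to 519 bp for Cdk9. Depth is unknown, and a factor with no peak is one not called, not one shown to be absent. No paired analysis was possible because each antibody has 1 library.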

Other observations

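Starts of noncoding genes clear of coding promoters were also split, in the whole lists only. Of all coding promoters, 7.63% had Larp7 only, 1.7% had Cdk9 only and 68.8% had both. Of coding promoters without Pol II, 14.6% had Larp7 only, 3.33% had Cdk9 only and 13.5% had both. Of 14984 lncRNA starts, 11.9% had Larp7 only, 2.90% had Cdk9 only and 23.2% had both. Of 1771 snRNA starts, 14.1% had Larp7 only, 4.35% had Cdk9 only and 6.32% had both, and of 9099 processed pseudogene starts, 14.2% had Larp7 only, 3.30% had Cdk9 only and 14.6% had both. Many snRNA entries are copies of a few sequences.

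Within promoters that had both factors, the widest gaps in list percentile were at HTR1F, a serotonin receptor, with percentile 97.0 for Larp7 and 4.93 for Cdk9, and at ING3, a subunit of a histone acetyltransferase complex, with 0.429 for Larp7 and 94.7 for Cdk9. HDAC1, a histone deacetylase, stood at 0.764 for Larp7 and 83.4 for Cdk9, with a Pol II fold of 40.5. NUSAP1, a spindle protein, stood at 91.5 for Larp7 and 1.09 for Cdk9, with a Pol II fold of 13.5. These genes were chosen after their values were seen.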
